A study of Mus musculus with 14 samples.

Results

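The DNA replication and S-phase genes described here are 50 mouse genes that encode proteins needed to copy the genome. They were taken as the rows of both deposited count tables whose symbol is in a fixed list of replication genes, and all 50 were found among the 55367 symbols of each table. All 50 also passed the filter on low counts in both experiments, in which 15794 and 13456 genes were tested. Messenger RNA was sequenced in 14 libraries of primary lineage-negative (Lin-) bone marrow cells from mice of wild-type genotype, that is, marrow from which cells bearing mature lineage markers had been removed. The cells were grown in IMDM with 15% FBS and the cytokines SCF, IL6 and IL3, and all had received a pSMAL lentivirus. In the first experiment the lentivirus carried luciferase, as the control (3 libraries), or the SETBP1-D868N mutant (3 libraries). SETBP1-D868N is a point mutant of a chromatin-associated protein that is found in myeloid leukaemia. In the second experiment every culture carried SETBP1-D868N and was given the vehicle DMSO (4 libraries) or 2.5 µM PF-9363 (4 libraries) for 4 days. PF-9363 inhibits acetyltransferases of the MYST family. Nothing in the labels says that the replicates came from separate animals or cultures, and no age is given, so the p-values measure only the spread between these libraries, which may be technical.

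Replication starts when the origin recognition complex, Cdc6 and Cdt1 load the ring of Mcm2 to Mcm7 on DNA, a step called licensing. The ring becomes an active helicase once Cdc45 and the GINS complex join it, and polymerases, the sliding clamp Pcna and its loader then copy both strands. Many of these genes are transcribed in a burst before S phase under control of E2F factors, so their RNA is high in cycling progenitors and low in cells that have left the cycle.

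Because E2F factors bind near the start of many replication genes, the letters of an E2F motif were searched in the promoters of the members. RefSeq windows of GRCm38.p6, from 250 bases before to 50 bases after a start, matched 41 of the 50 members. Gins1, Gins2, Gins4, Gmnn, Mcm4, Pole, Prim2, Rfc2 and Tipin had no entry. The letters were TTTCCCGC, TTTCGCGC, TTTGCCGC and TTTGGCGC, on both strands, and matches could overlap. They stood in a window of 16 of the 41 members (39%), against 704 of all 27025 genes with a window (2.6%) and 4.77% of the genes tested in both experiments that had one. These members were Cdc6, Cdt1, Clspn, E2f2, Gins3, Lig1, Mcm3, Mcm5, Mcm6, Mcm7, Orc1, Pola1, Pold1, Pole2, Rfc3 and Uhrf1. The CCAAT box (CCAAT, both strands) stood in 63.4% of the matched members, 41.1% of all genes and 43.3% of the genes tested in both experiments. For the letters of the CHR element (TTTGAA, both strands) these shares were 14.6%, 20.2% and 14.8%, so the members were close to the tested genes.

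The 250 bases before the start are printed below for 4 members with the E2F letters and for Tk1 and Orc2, which had none in their windows. They are written 5′ to 3′ along the gene, with the E2F letters in capitals. Mcm6, Mcm5 and Cdc6 had 3 of the 4 largest falls with PF-9363, while Orc1 is a licensing gene of low level. Tk1 fell about as far as Mcm5, and Orc2 was the only member with no call after PF-9363. The stretches lie at chr1:128359706-128359955 on the minus strand (Mcm6), chr8:75109259-75109508 on the plus strand (Mcm5), chr11:98907901-98908150 on the plus strand (Cdc6), chr4:108579204-108579453 on the plus strand (Orc1), chr11:117826015-117826264 on the minus strand (Tk1) and chr1:58505110-58505359 on the minus strand (Orc2).
Mcm6: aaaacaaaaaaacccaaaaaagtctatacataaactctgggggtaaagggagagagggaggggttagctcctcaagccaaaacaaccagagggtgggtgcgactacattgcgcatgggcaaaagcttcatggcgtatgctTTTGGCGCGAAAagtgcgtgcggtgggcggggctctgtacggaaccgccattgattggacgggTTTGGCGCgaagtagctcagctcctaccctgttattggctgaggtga
Mcm5: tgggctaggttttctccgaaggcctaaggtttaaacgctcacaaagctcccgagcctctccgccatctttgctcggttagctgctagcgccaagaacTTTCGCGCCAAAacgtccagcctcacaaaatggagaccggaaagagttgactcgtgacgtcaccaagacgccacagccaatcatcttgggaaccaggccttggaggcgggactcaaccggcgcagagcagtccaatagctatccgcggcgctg
Cdc6: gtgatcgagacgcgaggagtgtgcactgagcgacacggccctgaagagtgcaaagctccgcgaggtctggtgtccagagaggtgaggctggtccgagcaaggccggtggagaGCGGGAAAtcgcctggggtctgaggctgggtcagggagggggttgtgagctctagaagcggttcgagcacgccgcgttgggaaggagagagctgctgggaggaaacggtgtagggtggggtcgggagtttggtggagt
Orc1: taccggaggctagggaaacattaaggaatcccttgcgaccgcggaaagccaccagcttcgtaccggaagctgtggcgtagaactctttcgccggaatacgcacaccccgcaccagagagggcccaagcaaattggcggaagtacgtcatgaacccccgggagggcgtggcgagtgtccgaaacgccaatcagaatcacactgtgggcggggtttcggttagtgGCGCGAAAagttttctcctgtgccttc
Tk1: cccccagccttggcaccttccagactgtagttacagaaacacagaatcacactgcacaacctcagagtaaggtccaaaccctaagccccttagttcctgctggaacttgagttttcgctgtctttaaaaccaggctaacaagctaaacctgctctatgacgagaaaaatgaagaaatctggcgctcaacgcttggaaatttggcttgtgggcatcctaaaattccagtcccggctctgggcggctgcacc
Orc2: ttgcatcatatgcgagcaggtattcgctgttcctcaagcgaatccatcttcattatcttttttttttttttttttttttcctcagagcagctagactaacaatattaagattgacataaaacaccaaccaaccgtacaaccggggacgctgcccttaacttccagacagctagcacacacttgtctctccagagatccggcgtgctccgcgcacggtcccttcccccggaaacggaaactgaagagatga
In Mcm6 a pair of matches overlapped to give TTTGGCGCGAAA, and Mcm5 held the same 12 letters read from the other strand, TTTCGCGCCAAA. That run stood in the windows of 4 of 27025 genes, namely Mcm5, Mcm6, Msh3 and Mycn, and was singled out after the windows were seen. The single match of Cdc6 began at position -138 and that of Orc1 at position -27, counted back from the RefSeq start. The GENCODE M21 annotation starts Cdc6 at 98907801, ahead of the whole printed stretch. It starts Orc1 at 108579423 and Tk1 at 117826092, within their printed stretches. A match is a string of letters and not a measured binding site.

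Levels are given in CPM, counts scaled to the library total after TMM correction. Total counts per library ran from 60147266 to 68730322 in the first experiment and from 7083731 to 10359093 in the second. Setbp1, the mouse gene, stood at 0.0892 ± 0.0136 CPM with luciferase and 0.339 ± 0.0295 CPM with SETBP1-D868N (SD, n = 3 each), and reads of the introduced sequence may or may not map to it. Among markers of cell types, 9 neutrophil genes summed to 17400 to 18290 CPM and 8 stem and progenitor genes to 1042 to 1077 CPM in the luciferase libraries, so the cultures labelled lineage-negative held abundant granule transcripts. The 8 lymphoid genes summed to 57.4 to 61.2 CPM in the same libraries, of which Nkg7 alone made up 58.1 ± 1.98 CPM (SD, n = 3). In the second experiment the lymphoid markers Cd3e and Cd3g and the stromal markers Col1a2 and Cxcl12 were at 0 in every library.

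Per kilobase of the principal transcript, which allows levels of different genes to be compared, Pcna (the sliding clamp) had the highest level of the members in the luciferase libraries, 196 ± 4.05 CPM per kb (SD, n = 3). Rrm2 followed at 161 ± 0.245, Mcm6 at 128 ± 1.63, Mcm3 at 114 ± 1.14 and Rrm1 at 90.8 ± 1.43 CPM per kb. Mcm7 (87.4 ± 1.06) and Mcm5 (85.7 ± 0.165) were close, and Orc1 was lowest at 6.72 ± 0.193 CPM per kb. In the DMSO libraries Pcna (199 ± 15.8) was again highest in CPM per kb, followed by Mcm6 (175 ± 7.72) and then Rrm2 (117 ± 9.54), so the latter pair stood in the other order than with luciferase. After PF-9363, Pcna stood at 87.8 ± 3.94 CPM per kb and the next member was Rfc2 at 36.0 ± 3.10 (SD, n = 4). Rfc2 shares exon bases with the opposite-strand gene Lat2, whose part in that value was not tested.

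The first comparison asked how mutant SETBP1 changes transcription in these marrow cultures. SETBP1-D868N raised the RNA of most replication genes by a small amount: 41 of the 50 members were called higher, 1 was called lower (E2f2) and 8 were not called. Over all 15794 genes tested, 24.5% were called higher and 22.7% lower, 47.2% in all. The median log2 fold change of the members was 0.19 (quartiles 0.12 to 0.23), against 0.0043 over all genes tested (quartiles -0.22 to 0.17), and no member changed as much as 2-fold, where 1.34% of all genes tested were called at least 2-fold higher and 2.48% at least 2-fold lower. All 3 SETBP1-D868N libraries lay above all 3 luciferase libraries for 42 members, where 29.4% of all genes tested did so, and below them for 1 (E2f2, 27.3% of all genes tested). The geometric mean level of the members was 81.3, 81.1 and 81.4 CPM in the luciferase libraries and 92.3, 90.7 and 91.6 CPM with SETBP1-D868N. The groups did not overlap. In bulk RNA, more cells in S phase and more RNA per cell cannot be told apart. Scaling by library size alone moved the share of higher calls among all calls from 52.0% to 62.1% and called 43 members higher.

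**Figure D1:**
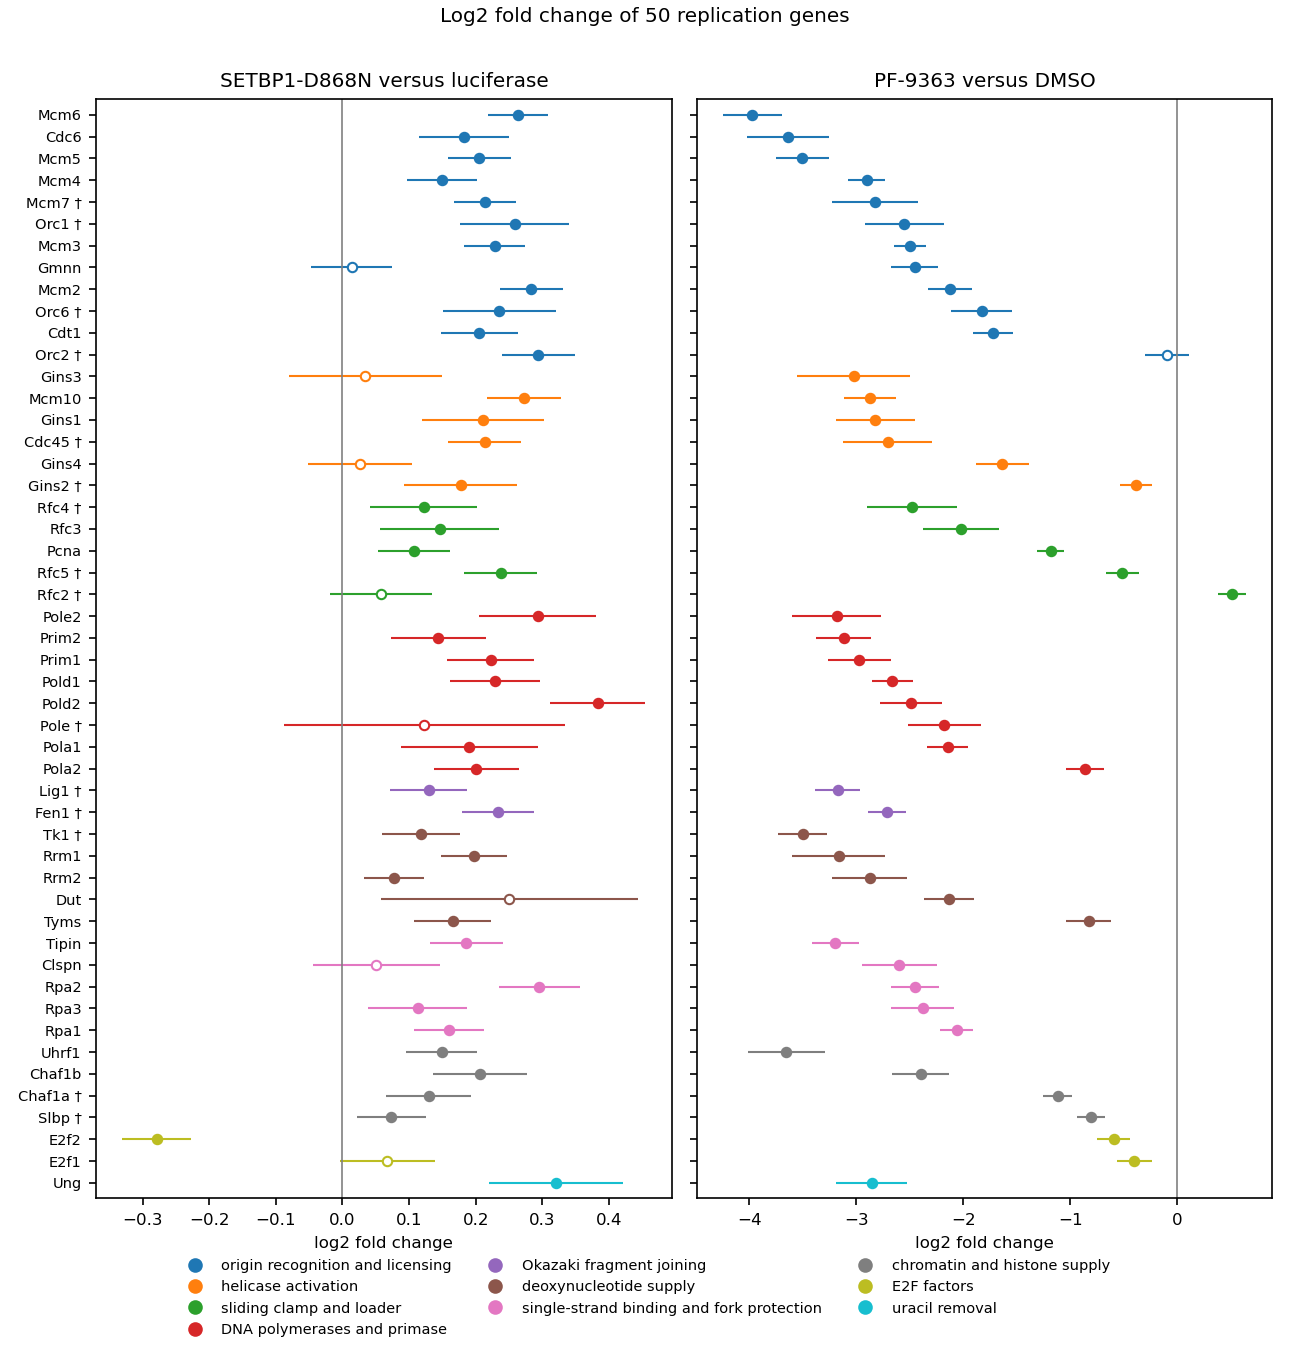
Log2 fold change of each member (points) with its 95% interval (lines) in both comparisons, coloured by role, with different x axes in the 2 panels. Filled points were called at an edgeR adjusted p under 0.05, and a dagger marks members that share exon bases with a gene on the opposite strand. Most points lie right of 0 with SETBP1-D868N (41 called higher) and left of 0 with PF-9363 (48 called lower).

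Of the 12 genes of origin recognition and licensing, 11 were called higher and 1, Gmnn, was not. Mcm2, a subunit of the helicase ring, stood at 255, 257 and 261 CPM in the luciferase libraries and 318, 309.5 and 313 CPM with SETBP1-D868N (log2 fold change 0.28 ± 0.024 (SE), edgeR adjusted p = 1.98e-06). The groups were clearly apart, and the other ring genes followed, with Mcm6 (0.26), Mcm3 (0.23), Mcm7 (0.21), Mcm5 (0.21) and Mcm4 (0.15) all called higher on the log2 scale. Orc2, a subunit of the origin recognition complex, had the largest rise of this group, from 72.4, 70 and 72 CPM to 88.1, 87.5 and 87.3 CPM (log2 fold change 0.29 ± 0.028 (SE), edgeR adjusted p = 4.7e-06). Its 3 mutant libraries were within 1 CPM of each other and far above the controls. Orc1 (0.26), Orc6 (0.24) and the loading factor Cdc6 (0.18) were called higher too. Cdt1, which brings the ring to the origin, stood at 91.5, 95 and 96.6 CPM in the luciferase libraries and 108, 109 and 109 CPM with SETBP1-D868N (log2 fold change 0.21 ± 0.029 (SE), edgeR adjusted p = 0.000112), with no overlap. Gmnn, which encodes the Cdt1 inhibitor geminin, stood at 61.2, 59.2 and 59.4 CPM in the luciferase libraries and 61.1, 59.3 and 61.2 CPM with SETBP1-D868N. Those ranges overlapped, and the 95% interval of its log2 fold change ran from -0.047 to 0.074.

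Among the 6 genes of helicase activation, 4 were called higher. Mcm10, which helps the loaded helicase start, stood at 68.7, 68.8 and 71.1 CPM in the luciferase libraries and 83.8, 84.1 and 84.1 CPM with SETBP1-D868N (log2 fold change 0.27 ± 0.028 (SE), edgeR adjusted p = 9.48e-06). Cdc45 (0.21) and the GINS subunits Gins1 (0.21) and Gins2 (0.18) rose as well on the log2 scale. The other GINS subunits were not called: Gins4 stood at 39.1, 39.2 and 36.5 CPM in the luciferase libraries and 39.5, 37.9 and 39.4 CPM with SETBP1-D868N (log2 fold change 0.026, 95% interval -0.051 to 0.10), and Gins3 had a log2 fold change of 0.034 (95% interval -0.081 to 0.15). Their groups overlapped, and both log2 fold changes fell below 0 when a single library was left out.

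At the fork, 4 of 5 clamp and clamp loader genes, 7 of 8 polymerase and primase genes and both genes that join Okazaki fragments were called higher. Pcna, the clamp, stood at 301, 301 and 290.4 CPM in the luciferase libraries and 327, 311 and 324 CPM with SETBP1-D868N (log2 fold change 0.11 ± 0.027 (SE), edgeR adjusted p = 0.00649), a small rise without overlap. Rfc5 had the largest change of the loader subunits, from 81.1, 83.5 and 81.9 CPM to 97.4, 97.8 and 95.4 CPM (log2 fold change 0.24), while Rfc3 (0.15) and Rfc4 (0.12) rose less, and lost their calls under 4 and 6 of 14 alternatives. Rfc2 stood at 119.9, 123 and 130 CPM in the luciferase libraries and 125, 136 and 126 CPM with SETBP1-D868N and was not called. Of the polymerases, Pold2, the small subunit of the lagging-strand polymerase delta, changed most of all members and stood at 41, 42.4 and 40.4 CPM in the luciferase libraries and 55.7, 52.1 and 53.9 CPM with SETBP1-D868N (log2 fold change 0.38 ± 0.036 (SE), edgeR adjusted p = 4.69e-06). Pole2 (0.29), Pold1 (0.23), Prim1 (0.22), Pola2 (0.20), Pola1 (0.19) and Prim2 (0.14) were called higher. Pole, the catalytic subunit of the leading-strand polymerase epsilon, spread from 50.9 to 60.7 CPM with luciferase and from 54.9 to 66.2 CPM with SETBP1-D868N, and was not called. Fen1, the flap nuclease, stood at 159.6, 161 and 165 CPM in the luciferase libraries and 194, 186 and 191 CPM with SETBP1-D868N (log2 fold change 0.23). Lig1, the ligase that seals the nicks, stood at 126, 125 and 124 CPM in the luciferase libraries and 136, 133 and 141 CPM with SETBP1-D868N (log2 fold change 0.13), also without overlap.

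Of the 5 genes that supply deoxynucleotides, 4 were called higher. Rrm2, the regulatory subunit of ribonucleotide reductase, stood at 354, 355 and 353 CPM in the luciferase libraries and 376, 377 and 368 CPM with SETBP1-D868N (log2 fold change 0.077 ± 0.023 (SE), edgeR adjusted p = 0.0158). Its rise was the smallest called among these genes, and the call was lost under 5 of 14 alternatives. The large subunit Rrm1 (0.20) and thymidylate synthase Tyms (0.17) were called higher on the log2 scale. Tk1, the salvage thymidine kinase, stood at 65.4, 64.9 and 66.8 CPM in the luciferase libraries and 73, 70.3 and 70.7 CPM with SETBP1-D868N (log2 fold change 0.12 ± 0.03 (SE), edgeR adjusted p = 0.00634). Dut, which removes dUTP, stood at 95.3, 89.5 and 88.2 CPM in the luciferase libraries and 123, 97 and 105 CPM with SETBP1-D868N and was not called (log2 fold change 0.25, edgeR adjusted p = 0.0961). One mutant library was far above the others, the groups did not overlap, and Dut was called under 6 of 14 alternatives. Ung, the glycosylase that removes uracil from DNA, stood at 24.3, 25.2 and 25.9 CPM in the luciferase libraries and 33.8, 30 and 30.4 CPM with SETBP1-D868N (log2 fold change 0.32 ± 0.051 (SE), edgeR adjusted p = 0.000269).

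Of the 5 genes of single-strand binding and fork protection, 4 were called higher. Rpa2, of the complex that coats single-stranded DNA, stood at 62.7, 63.2 and 63 CPM in the luciferase libraries and 79.9, 75.3 and 76.5 CPM with SETBP1-D868N (log2 fold change 0.30 ± 0.031 (SE), edgeR adjusted p = 1.02e-05), clearly apart. Tipin (0.19), a fork protection factor, and the other coat subunits Rpa1 (0.16) and Rpa3 (0.11) rose less, and the call of Rpa3 was lost under 7 of 14 alternatives. Clspn, the adaptor claspin, stood at 76.2, 66.9 and 69.1 CPM in the luciferase libraries and 71.4, 72.1 and 76.3 CPM with SETBP1-D868N, with overlap and no call. All 4 genes of chromatin and histone supply were called higher: Chaf1b, of the histone chaperone CAF-1, had a log2 fold change of 0.21 and stood at 43.4, 45.6 and 44.9 CPM in the luciferase libraries and 52.9, 49.8 and 51.8 CPM with SETBP1-D868N. The chaperone subunit Chaf1a (0.13) and Uhrf1 (0.15), which recruits maintenance DNA methylation, followed. Slbp, which binds the stem-loop of histone mRNAs, stood at 134, 136 and 135 CPM in the luciferase libraries and 144, 142 and 139 CPM with SETBP1-D868N (log2 fold change 0.073 ± 0.026 (SE), edgeR adjusted p = 0.0384), and its call was lost under 10 of 14 alternatives.

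E2f2 moved against the rest. This E2F factor stood at 145, 146 and 149 CPM in the luciferase libraries and 121, 121 and 121 CPM with SETBP1-D868N (log2 fold change -0.28 ± 0.026 (SE), edgeR adjusted p = 4.1e-06), so all mutant libraries were lower than all controls. E2f1 stood at 74.3, 78.8 and 74.8 CPM in the luciferase libraries and 81, 76.1 and 81.7 CPM with SETBP1-D868N. Its groups overlapped and it was not called (95% interval -0.0034 to 0.14).

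**Figure D2:**
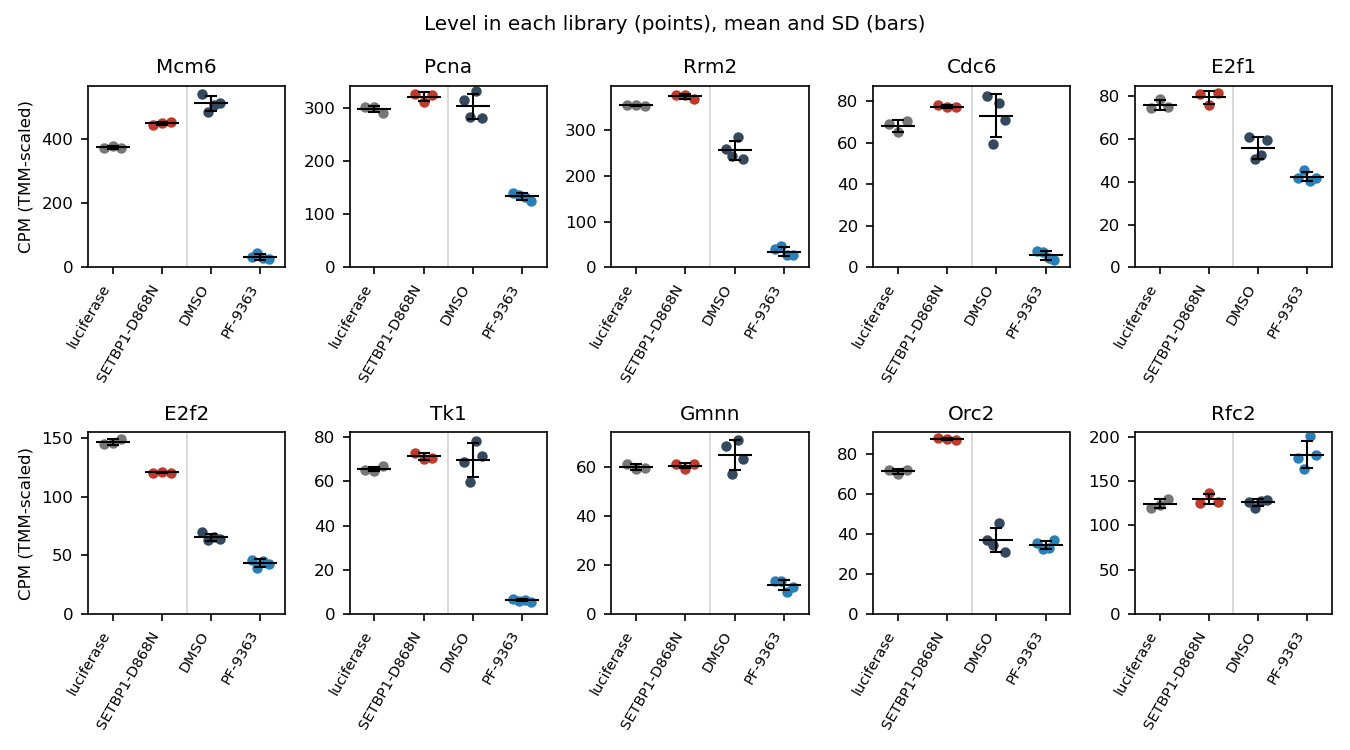
CPM (TMM-scaled) of 10 members in every library, with the mean and SD as bars, the first experiment left of each grey line and the second right of it. Mcm6 with PF-9363 (24.8 to 43.3 CPM) lies far below DMSO (483 to 537 CPM), while Orc2 overlaps and Rfc2 is higher.

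Before the second comparison, a difference between the tables needs stating. Antisense genes that lie at least 80% inside the exons of a protein-coding gene on the opposite strand, with a host of at least 20 CPM, were compared with their hosts, a check chosen after values were seen. Over 64 such pairs the antisense gene stood at a median of 0.0112% of its host in the first table and 17.8% in the second, and it was higher in the second table in 64 of 64 pairs. How strand was treated in counting is not given in the sources used here. For the second table, reads of genes that overlap on opposite strands therefore cannot be told apart. In GENCODE M21 (GRCm38), 15 members share exon bases with an opposite-strand gene: Cdc45, Chaf1a, Fen1, Gins2, Lig1, Mcm7, Orc1, Orc2, Orc6, Pole, Rfc2, Rfc4, Rfc5, Slbp and Tk1. Fen1 shares 78.8% of its exon bases with Gm10143, which stood at 100 CPM with DMSO and 14.9 CPM with PF-9363 in the second experiment but at 0.145 CPM with luciferase in the first.

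**Figure D3:**
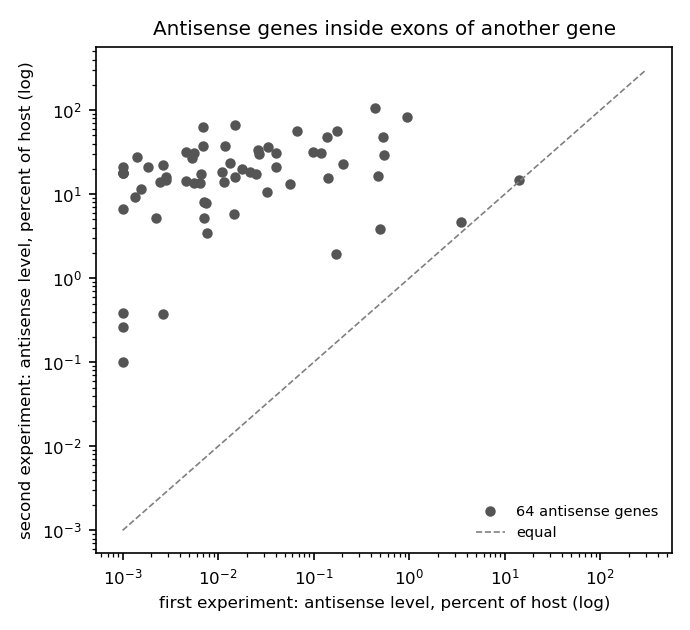
Level of 64 antisense genes as a percentage of the host gene on the opposite strand, first experiment on x and second on y, both axes logarithmic, with values under 0.001% drawn at 0.001. Every pair lies above the line of equality, with medians of 0.0112% and 17.8%.

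The second comparison asked what MYST inhibition does in SETBP1-D868N cells. PF-9363 lowered nearly the whole replication programme: 48 of the 50 members were called lower, 1 was called higher (Rfc2) and 1 was not called (Orc2). Many genes changed in this comparison, and over all 13456 genes tested 39.4% were called lower and 36.6% higher, or 76% in either direction. The members fell further than most, with a median log2 fold change of -2.49 (quartiles -2.90 to -1.75), against -0.038 over all genes tested (quartiles -0.71 to 0.59). The median member kept 17.9% of its DMSO level. At least 2-fold falls were called for 41 members (18.1% of all genes tested) and at least 4-fold falls for 36 (7.36% of all genes tested). For 48 members every PF-9363 library lay below every DMSO library, as did 36.3% of all genes tested, and for 1 member, Rfc2, every one lay above (34% of all genes tested). The geometric mean level of the members was 71.3, 63.2, 72.5 and 65.9 CPM with DMSO and 15.6, 16.2, 12.9 and 12.3 CPM with PF-9363.

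All 35 members with no opposite-strand exon overlap were called lower, with a median log2 fold change of -2.50. Of the 15 with an overlap, 13 were called lower. Scaling by library size alone shifted the median of all genes by -0.23 on the log2 scale and moved the share of higher calls among all calls from 48.1% to 36.2%, and it called 49 members lower. PF-9363 libraries 1 and 2 were both above libraries 3 and 4 in 33 of the 50 members and in 25 of 25 genes of a mitosis list, and in 21.1% of all genes tested. Each other way to pair these libraries put 2 to 6 members in that position. With the inhibitor group reduced to libraries 3 and 4 or to libraries 1 and 2, 48 members were called lower in both cases, with medians of -2.68 and -2.30.

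**Figure D4:**
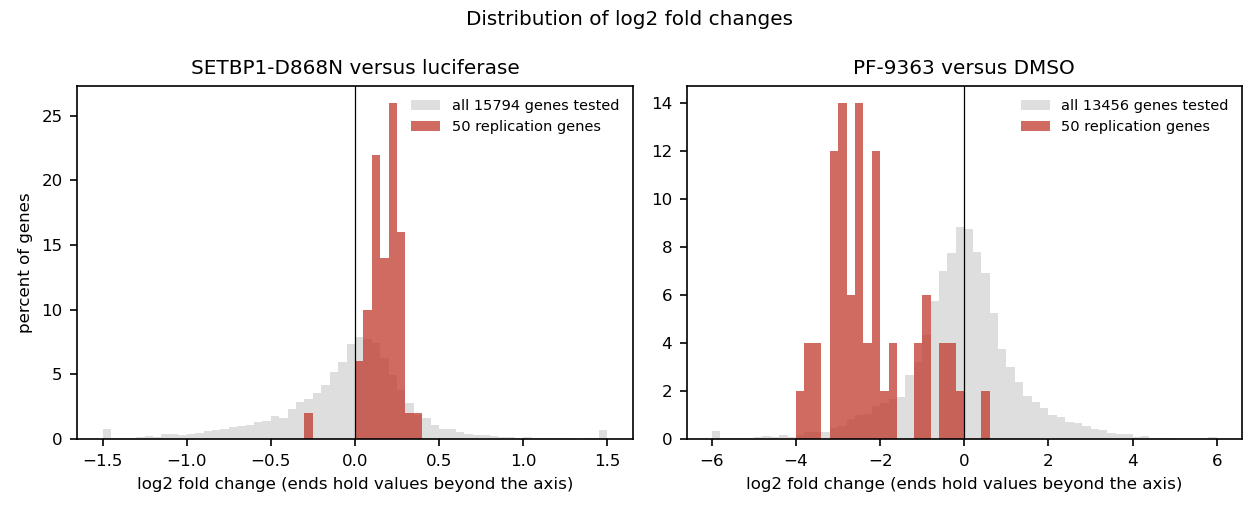
Distribution of log2 fold changes of the 50 replication genes (red) and of all genes tested (grey), as a percentage of each set. The members cluster just right of 0 with SETBP1-D868N (median 0.19) and well left of 0 with PF-9363 (median -2.49).

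Among licensing genes, 11 of 12 were called lower. Mcm6 fell furthest of all members and stood at 537, 483, 505 and 511 CPM with DMSO and 33.7, 43.3, 27.9 and 24.8 CPM with PF-9363 (log2 fold change -3.97 ± 0.14 (SE), edgeR adjusted p = 5.74e-10). It kept 6.37% of the DMSO level, and no inhibitor library came near a control. Mcm2 stood at 190.1, 160.2, 173 and 149.8 CPM with DMSO and 43.8, 44.5, 31.8 and 33.5 CPM with PF-9363 (log2 fold change -2.13 ± 0.11 (SE), edgeR adjusted p = 7.11e-12). The ring subunits differed in how far they fell, from Mcm5 (-3.50), Mcm4 (-2.90) and Mcm7 (-2.82) to Mcm3 (-2.50) and Mcm2. The loader Cdc6 (-3.64) had a larger fall than its partner Cdt1, which stood at 66, 53.4, 58.7 and 57.3 CPM with DMSO and 18.2, 18.3, 17.7 and 17 CPM with PF-9363 (log2 fold change -1.72 ± 0.095 (SE), edgeR adjusted p = 7.85e-16). Gmnn, the Cdt1 inhibitor, stood at 68.3, 57.1, 70.8 and 63.1 CPM with DMSO and 13.3, 13.5, 9.03 and 11 CPM with PF-9363 (log2 fold change -2.46), also without overlap. Orc1 (-2.55) and Orc6 (-1.83) were called lower. Orc2 stood at 37.1, 34.8, 45.6 and 31 CPM with DMSO and 35.7, 32.6, 33.3 and 37.1 CPM with PF-9363, with wide overlap (95% interval of the log2 fold change -0.30 to 0.11). Under scaling by library size alone Orc2 was called lower (-0.33). It shares 29.8% of its exon bases with Nif3l1, which stood at 32.1 CPM with DMSO and 32.6 CPM with PF-9363.

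All 6 genes of helicase activation were called lower, over a wide range. Gins3 stood at 14.7, 9.08, 14.8 and 9.62 CPM with DMSO and 1.44, 1.16, 0.623 and 2.39 CPM with PF-9363 (log2 fold change -3.02 ± 0.27 (SE), edgeR adjusted p = 3.01e-10). Mcm10 (-2.87), Gins1 (-2.82) and Cdc45 (-2.71) fell by similar amounts, and Gins4 (-1.63) by less. Gins2 stood at 66.5, 71.8, 76.4 and 74.9 CPM with DMSO and 49.5, 55.8, 56.8 and 60.2 CPM with PF-9363 (log2 fold change -0.38 ± 0.077 (SE), edgeR adjusted p = 6.13e-05), the smallest called fall of the 50 members. Gins2 shares 67.3% of its exon bases with Gse1 on the opposite strand, which stood at 127 CPM with DMSO and 126 CPM with PF-9363. How many of the reads listed for Gins2 come from Gse1 was not tested.

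The clamp and loader genes held the one member that rose. Pcna stood at 315, 284, 331 and 282 CPM with DMSO and 139, 137, 133 and 125 CPM with PF-9363 (log2 fold change -1.18 ± 0.065 (SE), edgeR adjusted p = 8.97e-16) and kept 44.1% of its DMSO level, a smaller fall than that of most members. Rfc4 (-2.48) and Rfc3 (-2.02) fell further, and Rfc4 stood at 28.9, 24.6, 33.1 and 30.3 CPM with DMSO and 7.11, 6.19, 5.45 and 2.28 CPM with PF-9363. Rfc5 stood at 69.5, 65.6, 62.6 and 66.9 CPM with DMSO and 44.7, 47.6, 42.8 and 50 CPM with PF-9363 (log2 fold change -0.51 ± 0.078 (SE), edgeR adjusted p = 9.28e-07). Rfc2 stood at 126, 119.8, 128 and 129 CPM with DMSO and 176, 163, 200.5 and 179 CPM with PF-9363 (log2 fold change 0.51 ± 0.065 (SE), edgeR adjusted p = 4.82e-08), with all inhibitor libraries above all controls. Both lie over opposite-strand genes that rose: Rfc2 shares 15.1% of its exon bases with Lat2, which went from 69.3 to 235 CPM, and Rfc5 shares 10.7% with Wsb2, which went from 44.5 to 145 CPM. The part of those neighbours in the values of Rfc2 and Rfc5 was not tested.

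All 8 polymerase and primase genes were called lower. Pole2, the accessory subunit of polymerase epsilon, stood at 20.2, 18.6, 19.4 and 14.9 CPM with DMSO and 2.78, 1.93, 2.49 and 0.868 CPM with PF-9363 (log2 fold change -3.18 ± 0.21 (SE), edgeR adjusted p = 1.24e-13), and the primase genes Prim2 (-3.12) and Prim1 (-2.97) fell nearly as far. Pold1 (-2.67), Pold2 (-2.49), Pole (-2.18) and Pola1 (-2.15) followed. Pola2, the second subunit of the priming polymerase alpha, kept 55% of its level and stood at 53.3, 51.9, 52.2 and 52.3 CPM with DMSO and 29, 33.8, 28 and 24.7 CPM with PF-9363 (log2 fold change -0.86 ± 0.092 (SE), edgeR adjusted p = 1.65e-09). It has no opposite-strand exon overlap, and its fall was the smallest of this role. Lig1 stood at 109.6, 99.8, 111 and 103 CPM with DMSO and 14.5, 13, 9.96 and 9 CPM with PF-9363 (log2 fold change -3.17), and Fen1 at 105, 101, 108 and 95.2 CPM with DMSO and 16.9, 17.3, 13.2 and 14.8 CPM with PF-9363 (log2 fold change -2.71), neither with overlap of the groups.

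All 5 genes of deoxynucleotide supply were called lower. Tk1 stood at 68.9, 59.7, 78.5 and 71.6 CPM with DMSO and 6.59, 5.93, 6.54 and 5.53 CPM with PF-9363 (log2 fold change -3.50 ± 0.12 (SE), edgeR adjusted p = 6.23e-21). Rrm2 stood at 259.6, 244, 284 and 236 CPM with DMSO and 39.2, 46.3, 26.9 and 26.7 CPM with PF-9363 (log2 fold change -2.87 ± 0.18 (SE), edgeR adjusted p = 1.63e-06), and its partner Rrm1 (-3.17) fell alongside. The inhibitor libraries of Rrm2 split, with 1 and 2 above 3 and 4. Dut had a log2 fold change of -2.13. Tyms, which makes thymidylate, stood at 51.9, 43.6, 53.8 and 47.6 CPM with DMSO and 29.7, 33.4, 22.3 and 25.2 CPM with PF-9363 (log2 fold change -0.83 ± 0.11 (SE), edgeR adjusted p = 7.28e-08), a far smaller fall than that of Tk1. Ung stood at 21.7, 18.3, 20.8 and 18.3 CPM with DMSO and 3.19, 3.22, 2.33 and 2.06 CPM with PF-9363 (log2 fold change -2.86).

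All 5 fork protection genes were called lower. Tipin stood at 92.9, 76.7, 95.7 and 80.8 CPM with DMSO and 9.68, 11.5, 7.32 and 9 CPM with PF-9363 (log2 fold change -3.20 ± 0.11 (SE), edgeR adjusted p = 3.62e-20), and Rpa1, with the smallest fall of this role, at 128, 125, 128 and 127 CPM with DMSO and 31.9, 34.4, 27.6 and 27.8 CPM with PF-9363 (log2 fold change -2.06 ± 0.078 (SE), edgeR adjusted p = 1.35e-19). Clspn (-2.60), Rpa2 (-2.45) and Rpa3 (-2.38) lay between them. The 4 genes of chromatin and histone supply were all called lower but spread widely. Uhrf1 stood at 208, 185, 185 and 189 CPM with DMSO and 16.8, 21.7, 9.65 and 12.3 CPM with PF-9363 (log2 fold change -3.65 ± 0.18 (SE), edgeR adjusted p = 1.11e-07) and kept 7.95% of its level. Chaf1b (-2.40) fell further than its partner Chaf1a (-1.12), which shares 52.5% of its exon bases with Ubxn6 on the opposite strand (56.1 CPM with DMSO, 65.7 CPM with PF-9363). Slbp stood at 114, 111, 119 and 109.7 CPM with DMSO and 60.3, 68.7, 63.4 and 66.8 CPM with PF-9363 (log2 fold change -0.81).

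Both E2F factors fell by much less than the median member. E2f1 stood at 60.9, 50.6, 52.5 and 59.5 CPM with DMSO and 42, 45.4, 40.3 and 41.6 CPM with PF-9363 (log2 fold change -0.40 ± 0.084 (SE), edgeR adjusted p = 0.000104), and E2f2 at 69.8, 63.2, 65.7 and 63.7 CPM with DMSO and 46.5, 38.9, 45.6 and 42.9 CPM with PF-9363 (log2 fold change -0.59 ± 0.08 (SE), edgeR adjusted p = 1.23e-07). Neither gene's groups overlapped, and neither shares exon bases with an opposite-strand gene. After PF-9363 the log2 median was -2.74 for the 16 members with E2F letters in a window and -2.38 for the 25 without. Their ranges overlapped widely, from -3.97 to -0.59 with the letters and from -3.50 to -0.095 without, and the difference was not tested. In the SETBP1-D868N comparison those medians were 0.20 and 0.21, so the members with and without the letters had similar medians there. By GENCODE M21, windows wholly inside the gene include those of Cdc6 and Mcm7 (with letters) and of E2f1 and Dut (without). The only Lig1 window with letters also lies inside its gene. Such windows may miss the promoter.

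Genes around the 50 members were read from lists made with earlier results of these data known. For reference, 24.5% of all genes tested were called higher with SETBP1-D868N and 22.7% lower. With SETBP1-D868N, 20 of 24 other nucleotide supply enzymes were called higher and 1 lower, with a median log2 fold change of 0.36 that was larger than that of the members. Shmt1 (0.56) and Shmt2 (0.51), the serine hydroxymethyltransferases that feed one-carbon units, rose, and Samhd1, which degrades deoxynucleotides, fell (-0.49). Among other fork and origin proteins 20 of 29 were called higher and 1 lower, led by the helicase Recql4 (0.37) and the nuclease Exo1 (0.34), with the polymerase delta subunit Pold4 lower (-0.31). Of 17 genes of chromatin assembly and maintenance 14 were called higher, led by the remodeller Hells (0.28), the FACT subunit Supt16 (0.25) and Rbbp7 (0.22), a histone-binding protein. In the checkpoint and fork repair list 17 of 28 were called higher and 1 lower, with Wee1 (0.36), the kinase that restrains Cdk1, ahead of Atrip (0.32), the partner of the checkpoint kinase Atr.

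In the mitosis list 10 of 25 genes were called higher with SETBP1-D868N, none lower and 15 not called (median log2 fold change 0.07). The 3 largest were Ccnb1 (0.18), Mad2l1 (0.15) and Ttk (0.13), a cyclin and a pair of spindle checkpoint genes. The geometric mean of the list overlapped between groups, at 138, 131 and 131 CPM with luciferase and 133, 138 and 142 CPM with SETBP1-D868N. Of 30 E2F, RB and G1/S cyclin genes 15 were called higher and 9 lower, where 24.5% and 22.7% of all genes tested were. Ccnd1, cyclin D1, fell (-0.74), while the cell cycle inhibitors Cdkn1c (0.74) and Cdkn2a (0.35) rose, from 0.666 to 1.12 CPM and from 6.54 to 8.36 CPM.

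With PF-9363 the lists fell broadly, where 39.4% of all genes tested were called lower and 36.6% higher. All 25 mitosis genes were called lower (median -2.37), led by the kinases Aurkb (-3.44) and Bub1 (-3.22) and the cyclin Ccnb2 (-2.97), and so were all 17 chromatin genes (median -1.80), led by the histone chaperone Asf1b (-2.57), Hells (-2.56) and the centromeric histone Cenpa (-2.46). In the checkpoint and fork repair list 26 of 28 were called lower and 1 higher, with the repair genes Brca1 (-3.38) and Fancd2 (-3.10) in front. Of other fork and origin proteins 24 of 29 were called lower and 3 higher, with Chtf18 (-4.07), of an alternative clamp loader, Exo1 (-3.81) and the origin-firing kinase Cdc7 (-3.32) falling most. Among nucleotide enzymes 20 of 24 were called lower and 4 higher. Rrm2b, the p53-inducible ribonucleotide reductase subunit, stood at 21.4, 24.3, 16.7 and 23.4 CPM with DMSO and 114, 129, 85.1 and 85.2 CPM with PF-9363 and rose, against its replicative counterpart Rrm2, while the thymidylate kinase Dtymk (-2.39) and Shmt1 (-2.10) fell. Of 29 tested E2F, RB and G1/S cyclin genes 19 were called lower and 6 higher, and the list was led by Cdkn2a, which encodes inhibitors of the cell cycle. Cdkn2a stood at 6.64, 8.38, 6.37 and 8.26 CPM with DMSO and 90.4, 91, 133 and 110 CPM with PF-9363 (log2 fold change 3.83 ± 0.14 (SE), edgeR adjusted p = 2.57e-14). Cdkn2c (-2.67) and the phosphatase Cdc25a (-2.61) fell. Opposite-strand exon overlap was looked up for the 50 members alone, so its part in the values of these lists was not tested.

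**Figure D5:**
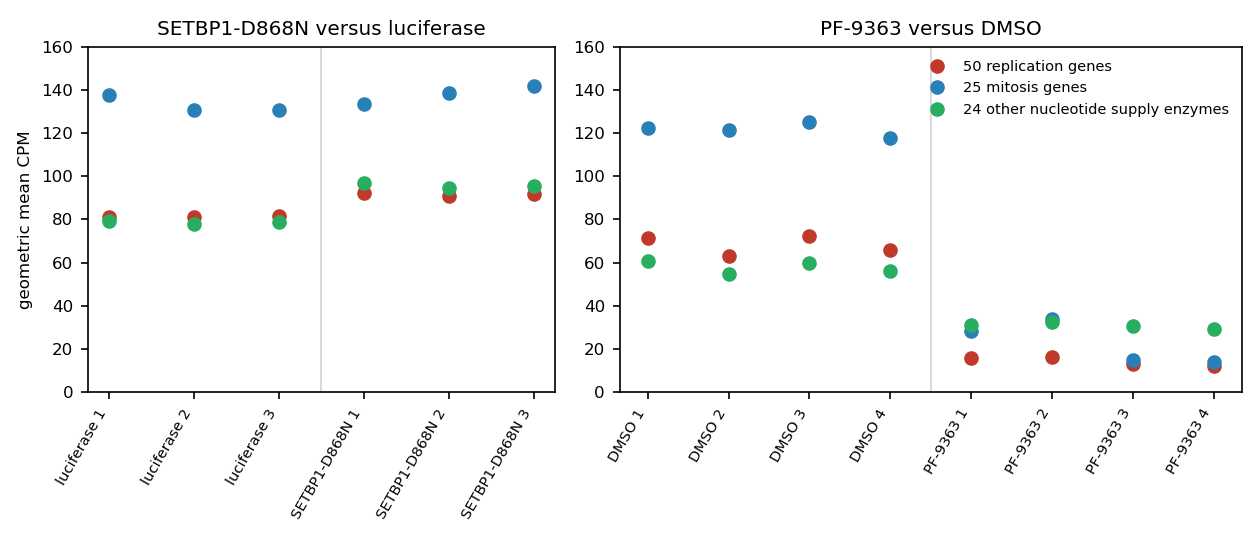
Geometric mean CPM of the 50 replication genes (red), 25 mitosis genes (blue) and 24 other nucleotide supply enzymes (green) in each library of both experiments. The members sit at 90.7 to 92.3 CPM with SETBP1-D868N against 81.1 to 81.4 CPM with luciferase, and at 12.3 to 16.2 CPM with PF-9363 against 63.2 to 72.5 CPM with DMSO.

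Cell type markers were read in the same comparisons. Their counts stand beside shares over all genes tested of 24.5% higher and 22.7% lower with SETBP1-D868N. With PF-9363 those shares were 36.6% and 39.4%, or 76% in either direction. With SETBP1-D868N, 9 of 9 monocyte, macrophage and dendritic markers were called lower, their sum going from 3827 to 3882 CPM with luciferase to 2249 to 2483 CPM. Neutrophil markers summed to 17400 to 18290 CPM and 12530 to 14120 CPM, with the primary granule genes Elane, Mpo and Prtn3 called higher and the other 6 of 9 lower. The sums of stem and progenitor markers (4 of 8 higher, 3 lower) were 1042 to 1077 CPM and 1228 to 1270 CPM. With PF-9363, 9 of 9 monocyte, macrophage and dendritic markers were called higher, from a sum of 1769 to 2014 CPM with DMSO to 9821 to 11640 CPM, and 8 of 9 mast cell and basophil markers, from 1018 to 1294 CPM to 4230 to 5233 CPM. Neutrophil markers (3 of 9 higher, 4 lower) summed to 11570 to 13830 CPM and 9268 to 9860 CPM. The mean of the primary granule gene Elane fell from 1453 to 1.75 CPM, that of Mpo from 2320 to 6.35 CPM and that of Prtn3 from 1054 to 7.31 CPM. The later granulocyte genes Ltf (log2 fold change 1.11), Ly6g (1.44) and Mmp8 (1.86) rose, and Camp (-2.15) fell. Stem and progenitor markers (3 of 7 tested higher, 2 lower) summed to 493 to 520.4 CPM and 608 to 668 CPM. Mast cell and basophil markers with SETBP1-D868N (3 of 9 higher, 5 lower) summed to 3983 to 4127 CPM, against 4454 to 4671 CPM. The erythroid and megakaryocyte sum was 288 to 306 CPM with luciferase and 299 to 324 CPM with SETBP1-D868N (3 of 8 higher, 2 lower), and 43.9 to 49.9 CPM with DMSO and 216 to 238 CPM with PF-9363 (3 of 4 tested higher), where Itga2b alone went from 32.3 to 203 CPM on average. Of the lymphoid markers, 3 were tested with SETBP1-D868N, with Nkg7 higher (0.47) and Cd3g (-1.87) and Pax5 (-1.47) lower, both at under 1 CPM. With PF-9363 Nkg7 was the only one tested, and it fell from a mean of 41.6 to 1.7 CPM. The stromal and endothelial sum was nearly all Pecam1, which is also found on blood cells, with means of 409.7 CPM with luciferase, 409 with SETBP1-D868N, 539 with DMSO and 402 with PF-9363. Of this list 1 of 4 tested was called higher in the first comparison, and 1 of 2 tested, Pecam1, lower in the second. The part of these changes in the replication values was not tested.

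Side by side, 40 members were called higher with SETBP1-D868N in the first experiment and lower with PF-9363 in the separate second experiment. Over all genes tested, 24.5% were called higher in the first comparison and 39.4% lower in the second. The share of all genes with both calls was not counted. Orc2 was called higher and then not called, Rfc2 not called and then higher, and E2f2 lower in both. The other 7 (Clspn, Dut, E2f1, Gins3, Gins4, Gmnn and Pole) were not called in the first comparison and lower in the second. The sizes were far apart, since Mcm6 rose to 120% of its control in the first comparison and fell to 6.37% in the second. Across the 50 members the log2 fold changes of the comparisons had a Spearman rho of -0.17 and a Pearson r of -0.28, as a description across genes, which share libraries within each comparison. The experiments share no library but differ in input (500 and 100 ng of total RNA), library preparation and depth. The level of antisense genes relative to their hosts differs too, and whether library preparation or counting gave that was not tested. Levels of the experiments were therefore not tested against each other.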

How the data were processed

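RNA was measured by sequencing of polyadenylated RNA in 14 libraries, grouped by sample title. Input was 500 ng with the Watchmaker kit in the first experiment and 100 ng with libraries made by Novogene in the second, per the labels' protocols. The authors deposited tables of raw counts, 1 per experiment, with gene symbols as rows. The submitters' processing notes name STAR, DESeq2, GRCm38 and mm10. The counting program, annotation, strand setting and treatment of multi-mapped reads are not given in the sources used here, so members with near-identical pseudogenes may have lost or gained reads.

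From the counts, genes were kept with filterByExpr (minimum count 10, minimum total 15), scaled by TMM and compared within each experiment by edgeR 4.0.16's quasi-likelihood test in R 4.3.3 (glmQLFit with robust estimation, group as the factor). P-values were adjusted by Benjamini-Hochberg over all genes tested, with calls made below 0.05. Standard errors are the absolute log2 fold change over the square root of F, and 95% intervals are 1.96 SE each way. Counting precision follows the totals in the text, and 0 counts in a library allow up to 3 counts. In simulated counts, changes were made in genes drawn at random over all levels, so the recovery does not describe the members. The direction of the changes made was mostly recovered. A small minority of genes with changes as small as most of those seen with SETBP1-D868N were called. False calls stayed near the nominal share with trended dispersions, a setting added after gene-wise dispersions were seen to give more. With gene-wise dispersions they exceeded the nominal share in some draws, and by a wide margin in some draws of an earlier run. Replicate libraries differed by more than sampling noise in every group (chi-square per degree of freedom from 2.21), so none was merged.

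Positions, exon overlaps and transcript lengths come from GENCODE M21 (GRCm38) and promoter windows from RefSeq (GRCm38.p6). H2afz of the chromatin list was matched to H2az1 through RefSeq synonyms. All 50 members are named. Library values are given for the members with the largest and smallest change in each role and comparison and for Pcna, Mcm2, Rrm2, Tk1, Cdt1, Gmnn, E2f1 and E2f2, with a few others named after their values were seen. From each of 6 pathway lists (153 genes) the 3 called genes with the largest change are named, except where an item is not reported here. The 7 marker lists (58 genes) were erythroid and megakaryocyte, lymphoid, mast cell and basophil, monocyte, macrophage and dendritic, neutrophil, stem and progenitor, and stromal and endothelial. The members and lists were chosen with earlier results of these data known. Alternatives were other scalings, filters, DESeq2 1.42.0, limma 3.58.1 (voom), no robust estimation, a replicate block and leaving out each library. 0 columns of the tables were left unmapped.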

Additional observations from a re-analysis of the deposited data

Results flagged for a closer look

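Among 100 groups of 4 libraries (50 members in DMSO and in PF-9363), 3 held a library far from the others, by a gap that exceeded Dixon's 95% critical value. Chance flags about 1 in 20 groups. Gins4 stood at 28.24 CPM in DMSO library 2, where the other DMSO libraries stood at 37.4 to 38.9 CPM. Orc6 stood at 13.79 CPM in PF-9363 library 2, against 8.65 to 9.18 CPM in the others. Uhrf1 stood at 207.9 CPM in DMSO library 1, against 185 to 189 CPM in the others. All 3 members were called lower with PF-9363 under every alternative tried.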

How the results depend on the processing

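Of the 42 members called with SETBP1-D868N, 36 stayed called under all 14 alternatives, and Slbp, Rpa3, Rfc4, Rrm2, Rfc3 and Pola1 lost their call under 10, 7, 6, 5, 4 and 1 of them. All 49 calls with PF-9363 held. The cause of the lost calls was not tested. Under library size alone the median log2 fold change of the members was 0.24 with SETBP1-D868N and -2.71 with PF-9363. Values that changed sign were of members not called: leaving out 1 library gave -0.0060 to 0.044 for Gins4 (negative without luciferase library 3), -0.0051 to 0.096 for Gins3 (negative without SETBP1-D868N library 1 or 2) and -0.18 to 0.013 for Orc2 (positive without DMSO library 3). Leaving out 1 library left 36 to 40 members called higher in SETBP1-D868N cells, and always 48 called lower under PF-9363. In alternatives chosen after seeing the data, the PF-9363 median was -2.68 without PF-9363 libraries 1 and 2 and -2.30 without 3 and 4, and 0 of the 35 members with no opposite-strand exon overlap were higher. Same-numbered libraries did not deviate together (correlations from -0.097 to 0.0075), so no pairing by number was seen, though a weak one could be missed. With a replicate block, 38 members rose and 1 fell in the SETBP1-D868N comparison, while 1 rose and 48 fell under PF-9363. Reads from opposite strands limit the 15 overlapping members in the second experiment, and depth limits Gins3, Pole2, Gins1, Orc1 and Ung, at under 4 CPM with PF-9363.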

Other observations

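Some members start close to another gene that starts on the opposite strand. It is transcribed away from the member, or it starts inside the member, as for Cdc45, Fen1, Mcm7, Orc6 and Tk1. Within 1000 bp, 11 of the 50 members (22%) had a protein-coding neighbour that starts on the opposite strand, against 15.9% and 17.3% of the protein-coding genes tested in the first and second experiment, a rule chosen after values were seen. With PF-9363 7 of these 11 neighbours were called lower, 2 higher and 2 not called, while all 11 members were called lower. Over all genes tested there, 39.4% were called lower and 36.6% higher. Prpf38a, next to Orc1, fell by 1.26 on the log2 scale, and Pxmp2, next to Pole, went from 3.06 to 0.307 CPM. The latter value is near the most that 0 counts allow in the PF-9363 libraries (0.290 to 0.424 CPM). Abhd12, next to Gins1, went the other way, from 39.2 to 85.4 CPM (log2 fold change 1.12 ± 0.080 (SE), edgeR adjusted p = 2.86e-13), while Gins1 itself fell. Prkdc, the DNA repair kinase gene next to Mcm4, had a log2 fold change of -0.57, against -2.90 for Mcm4. With SETBP1-D868N, 2 of the 11 neighbours were called higher, 1 lower and 8 not called, while 10 of the 11 members were called higher. Over all genes tested in that comparison, 24.5% were called higher and 22.7% lower. Where the pair also shares exon bases, as Cdc45 with Ufd1 and Orc6 with Vps35, the values of the second experiment cannot be told apart by strand.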
